A study of Homo sapiens with 29 samples.

Results

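BPK29 and BPK9 are compounds known only by these code names, and both were given to the human lung cancer line H460 at 30 µM for 12 h. BPK29 is known as a ligand that acts on the nuclear receptor NR0B1, and BPK9 serves as its inactive control. The comparison asks which transcripts differ between the active compound and the control compound at the same dose and time. It uses 6 of the 29 samples of the series, 3 libraries for each compound, chosen by their labels alone. A further 3 libraries from H460 cells given the solvent DMSO for 12 h show which compound stands apart from cells without either, and H460 cells with a short hairpin RNA against NR0B1 or, as control, against GFP (shNR0B1 and shGFP, 3 libraries each, 72 h) are set beside the result. All of these libraries came from 1 cell line, H460, an established non-small cell lung cancer line, and all measured polyadenylated RNA. The compound and DMSO cells were kept in RPMI medium with 10% serum.

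NR0B1, also called DAX1, is an orphan nuclear receptor that lacks the usual DNA-binding domain and works by binding other transcription factors and coregulators. In lung cancers with KEAP1 mutations, such as H460, the transcription factor NRF2 (gene NFE2L2) escapes degradation and keeps antioxidant and detoxifying genes active, and NR0B1 is among the genes it keeps on. Cells that meet reactive or damaging compounds can also raise ATF4 targets, which supply amino acids, or heat shock genes, which refold proteins, so lists for these programmes were examined beside NRF2 targets, growth genes and cell cycle genes.

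Values are RPM, the number of a gene's reads in each 1000000 reads, with whole reads recovered from the deposited values and put on the authors' depth scaling. Recovered depth was 22189256 to 24085303 reads in the 6 compound libraries. Where a mean RPM is followed by ±, that figure is the standard deviation among the 3 libraries of its group, not a standard error. RPM values depend on transcript length, so a level is compared between libraries and never between genes. A gene was called when limma, fitted over the 9 compound and DMSO libraries, gave a Benjamini-Hochberg adjusted p under 0.05, and fold changes are log2(RPM + 0.5) differences with their standard error (SE) over 3 against 3 libraries. The labels do not say how the replicates were made, so every p-value below speaks of the spread among the libraries and no more, and that spread may be technical. In bulk RNA, fewer cells of a type and less RNA per cell cannot be told apart.

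With BPK29, a large share of the transcriptome differed from BPK9, mostly by small amounts. Among the genes furthest up were HMOX1, which breaks down heme, the asparagine synthetase ASNS and the noncoding RNA NEAT1, each at about 2 times the BPK9 level, while the heat shock gene HSPA1A, the imprinted gene MEST and the carboxypeptidase CPA4 went down. Of 12937 genes tested, 6206 were called (48.0%), with 2651 higher under BPK29 (20.5%) and 3555 lower (27.5%). The BPK29 and BPK9 libraries did not overlap in 6995 of the 12937 genes, so a lack of overlap was common. The median change was 0.22 among genes called higher and -0.22 among those called lower, on the log2 scale. A change of at least 1.5 fold was met by 396 of the called genes (3.06%), 121 higher (0.935%) and 275 lower (2.13%), and at least 2 fold by 13 higher and 33 lower.

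How calls split by direction depended on the depth scaling: 42.7% of calls were higher with the authors' scaling, 49.4% with median-ratio scaling over the 6 libraries and 58.7% with a common total of reads. The count past 1.5 fold ran from 184 with a pseudocount of 2 to 643 with limma voom. The plot of all genes shows the spread of changes narrowing as the level rises.

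**Figure D1:**
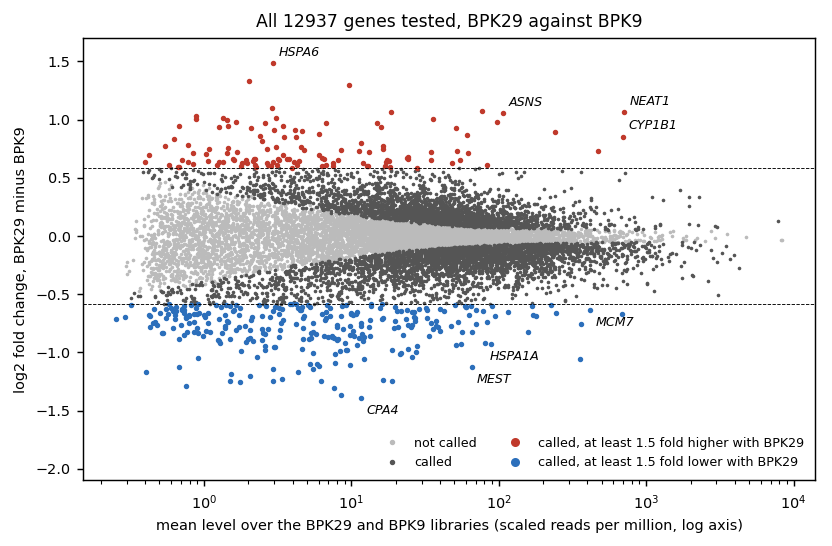
Each point is 1 of 12937 genes, with its mean level over the BPK29 and BPK9 libraries (scaled RPM, log axis) on the horizontal axis and its log2 fold change, BPK29 minus BPK9, on the vertical axis. Dashed lines mark a 1.5-fold change, passed by 121 called genes above and 275 below.

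Of NR0B1 and the proteins around it, RBM45 fell, NR0B1 and NFE2L2 changed little, and KEAP1 and SNW1 did not pass the test. NR0B1 stood at 90.2, 86 and 88.8 RPM with BPK29, at 96.2, 96.3 and 95.3 with BPK9 and at 94.8, 92.1 and 92.2 with DMSO. The BPK29 libraries were the lowest of the 9, by a small margin, and NR0B1 fell by 0.12 ± 0.0315 on the log2 scale (limma, Benjamini-Hochberg adjusted p = 0.00186); with a common total the call was lost (-0.07, limma adjusted p = 0.0668). NFE2L2, which encodes NRF2, stood at 170.1, 170.2 and 177 RPM with BPK29, at 158, 167 and 164 with BPK9 and at 159, 164 and 162 with DMSO. It rose by 0.08 ± 0.0277 (limma adjusted p = 0.0148) with no overlap between the compounds, and lost its call when BPK29 replicate 3 or BPK9 replicate 1 was left out (0.06 in both). RBM45, an RNA-binding protein, was 15.2 ± 0.987 RPM with BPK29 against 19.7 ± 0.526 with BPK9 and fell by 0.37 ± 0.0607 (limma adjusted p = 2.52e-06). KEAP1, the adaptor that marks NRF2 for degradation, differed by 0.06 (95% interval -0.01 to 0.13, limma adjusted p = 0.188) and SNW1, a coregulator of transcription and splicing, by 0.04 (-0.02 to 0.09, adjusted p = 0.27). Neither passed the test, and both passed as higher with a common total (0.11 and 0.09).

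The genes that rose most included enzymes of lipid signalling, heme breakdown and amino acid supply. SPHK1, the kinase that makes sphingosine 1-phosphate, stood at 13.2, 14.7 and 13.8 RPM with BPK29, at 5.16, 5.66 and 5.16 with BPK9 and at 5.56, 5.05 and 5.18 with DMSO. All 3 BPK29 libraries lay far above the other 6, and the BPK9 and DMSO libraries overlapped. SPHK1 rose 2.6 fold on the RPM scale (log2 fold change 1.30 ± 0.086, limma adjusted p = 9.02e-17). HMOX1, heme oxygenase and a classic stress gene, stood at 106, 105 and 102 RPM with BPK29, at 48.8, 48.9 and 49.7 with BPK9 and at 45.9, 48.6 and 49.5 with DMSO. Here too the BPK29 libraries were clear of the rest, at 2.12 times the BPK9 mean (log2 1.08 ± 0.0366, limma adjusted p = 7.75e-27). NEAT1, the long noncoding RNA that scaffolds nuclear paraspeckles, stood at 966, 944 and 976 RPM with BPK29, at 495, 414 and 470.4 with BPK9 and at 582, 489 and 445 with DMSO. It rose 2.09 fold (log2 1.07 ± 0.0468), although its BPK9 and DMSO libraries were more scattered than those of HMOX1.

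NDRG1, a stress and hypoxia gene, was 25.1 ± 0.598 RPM with BPK29 against 11.8 ± 0.467 with BPK9, and rose by 1.06 ± 0.0656. ALDH1L2, a mitochondrial enzyme of folate metabolism, was 48.2 ± 2.94 RPM with BPK29 against 23.7 ± 0.245 with BPK9 and rose by 1.01 ± 0.0508. ID1, a helix-loop-helix inhibitor of differentiation, stood at 320.4, 312 and 312 RPM with BPK29, at 163, 173 and 171 with BPK9 and at 151, 148 and 149 with DMSO. Its BPK29 libraries were the highest, and its BPK9 libraries in turn lay above DMSO, so BPK9 also differed from DMSO (BPK9 minus DMSO 0.18, limma adjusted p = 0.000143). Other leaders with higher values were MEGF6 (0.98), the orphan receptor GPRC5C (0.97), CALCOCO1 (0.97), AHNAK2 (0.93), the histone demethylase JHDM1D (0.91), MGC12916 (0.90) and TMEM150A (0.88). Like ID1, MEGF6 and GPRC5C were also called higher with BPK9 than with DMSO (0.24 and 0.38).

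The genes that fell most included secreted proteins, ligands, a gap junction gene and an imprinted gene. CPA4, a secreted carboxypeptidase, stood at 6.2, 6.43 and 5.89 RPM with BPK29, at 16.7, 17 and 17.3 with BPK9 and at 19, 20.0 and 16.8 with DMSO. The BPK29 libraries were lowest, with no overlap, and CPA4 fell 2.76 fold (log2 -1.39 ± 0.0719, limma adjusted p = 2.63e-20). MEST, an imprinted gene of the hydrolase family, stood at 40.7, 40.5 and 41.8 RPM with BPK29, at 91.6, 89 and 89.5 with BPK9 and at 94.2, 91.9 and 95.6 with DMSO. Its 3 BPK29 libraries were nearly equal and less than any other library, a fall of 1.13 ± 0.0342 (limma adjusted p = 1.54e-28). Other ligands and surface genes fell: BMP5, a bone morphogenetic protein, by 1.36, ARTN, a ligand of the RET receptor, by 1.25, THBS1, the matrix protein thrombospondin 1, by 1.17, and GJA5, a gap junction connexin, by 1.25.

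SPTLC3, a subunit of the enzyme that starts sphingolipid synthesis, stood at 10.4, 9.59 and 8.57 RPM with BPK29, at 24.3, 21.6 and 23.3 with BPK9 and at 22.1, 20.6 and 22.3 with DMSO, and its BPK29 libraries were the lowest (log2 -1.24 ± 0.0665). MAP2K6, a kinase upstream of p38, was 3.52 ± 0.435 RPM with BPK29 against 8.14 ± 1.04 with BPK9 and fell by 1.10 ± 0.0998. The rest of the 15 leaders with lower values were OTOGL (-1.30), GPR22 (-1.14), COL26A1 (-1.11), TTC32 (-1.11), KIAA0040 (-1.10), USH1C (-1.09) and CPLX2 (-1.06). The dot plot of the leading genes shows the DMSO libraries on the BPK9 side. Over the 396 genes past 1.5 fold, the DMSO mean was nearer to BPK9 than to BPK29 in 386.

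**Figure D2:**
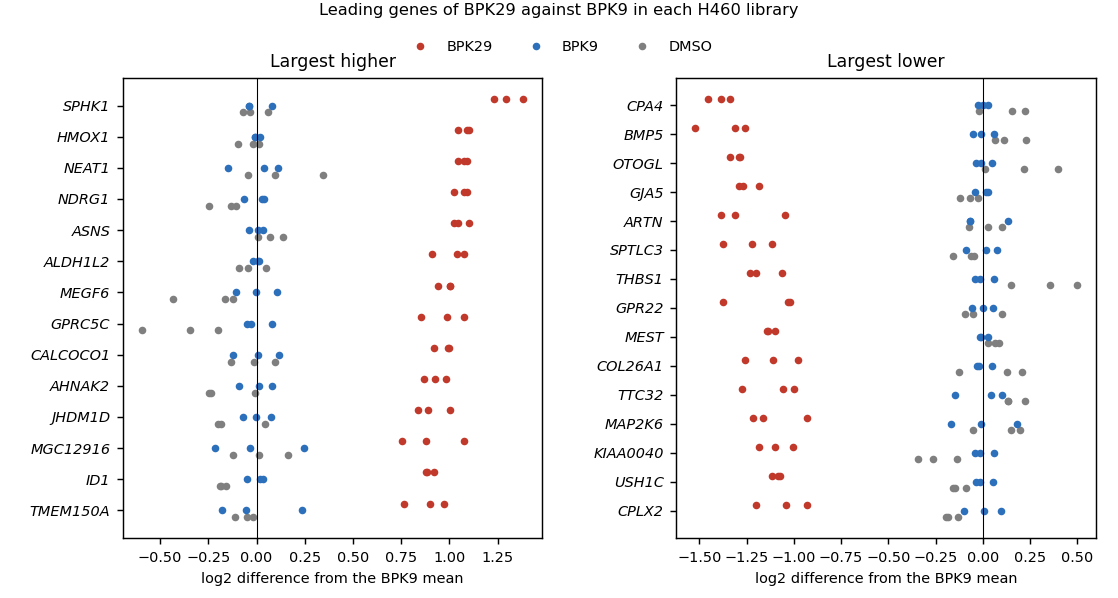
Points are single H460 libraries (red BPK29, blue BPK9, grey DMSO), placed by their log2(RPM + 0.5) difference from the BPK9 mean for 14 of the 15 leading genes with the largest rise (left) and the 15 with the largest fall (right). The BPK29 points stand apart from BPK9 in all 29 genes shown, by the rule that chose them. The DMSO points lie nearer to BPK9 than to BPK29 in each row. DMSO libraries entered that rule only through the minimum level and the shared estimate of the spread.

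Genes that answer to ATF4, the factor translated when amino acids run short or the endoplasmic reticulum is stressed, were mostly higher with BPK29. Of 31 listed members 28 reached the minimum level of 0.5 RPM in 3 libraries, and of these 20 rose, 2 fell and 6 did not pass, with a median log2 difference of 0.23, against 20.5% of all genes called higher and a median of -0.02 over all genes. ASNS, asparagine synthetase, stood at 142, 150.1 and 144 RPM with BPK29, at 70.1, 71.3 and 67.7 with BPK9 and at 69.9, 73.1 and 76.8 with DMSO. Its BPK29 libraries were all above the other 6, and it rose 2.09 fold (log2 1.06 ± 0.0343, limma adjusted p = 1.44e-27). CHAC1, which degrades glutathione, was sparse, at 1.13, 1.3 and 1.63 RPM with BPK29, at 0.477, 0.472 and 0.317 with BPK9 and at 0.33, 0.863 and 0.32 with DMSO, and met the minimum level only through its BPK29 libraries, so its call is a description; without it 19 of 27 members rose and 2 fell (median 0.21). The BPK29 libraries were still the highest (log2 1.00 ± 0.188, limma adjusted p = 2.1e-05), but 1 DMSO library came close to them. Both carry a composite ATF4 and C/EBP element within 250 bases before their start, and these are the 2 stretches shown here, from RefSeq (GRCh38.p14), as the 250 bases before the start, 5′ to 3′ along each gene, with the element (TGATGNAAN on either strand) in capitals. ASNS lies on the minus strand at chr7:97872409-97872658 and CHAC1 on the plus strand at chr15:40953221-40953470.
ASNS: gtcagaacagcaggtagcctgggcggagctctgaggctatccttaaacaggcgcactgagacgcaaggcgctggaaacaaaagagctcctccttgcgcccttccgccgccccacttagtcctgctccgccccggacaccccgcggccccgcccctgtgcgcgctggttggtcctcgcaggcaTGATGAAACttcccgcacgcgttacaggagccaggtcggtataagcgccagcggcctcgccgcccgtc
CHAC1: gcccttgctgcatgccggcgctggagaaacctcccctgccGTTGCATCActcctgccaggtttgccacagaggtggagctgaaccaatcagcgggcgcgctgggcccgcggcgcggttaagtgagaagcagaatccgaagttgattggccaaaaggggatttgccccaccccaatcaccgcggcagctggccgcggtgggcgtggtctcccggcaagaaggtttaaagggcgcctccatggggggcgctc
The element begins 68 bases before the start in ASNS and 210 in CHAC1, where it is read on the opposite strand. Of 24 tested ATF4 members with a promoter in the table, only these 2 held a match (8.33%). CHAC1 counts among the 24 only through its BPK29 libraries, so no result is read from this share. Such a match was held by 138 of 10211 tested genes with a promoter in the table (1.35%) and by 867 of all 27305 promoters (3.18%). A match describes letters only.

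By role, 11 of 14 members for amino acid supply rose and 1 fell. CBS, which makes cystathionine on the way to cysteine, was 42.3 ± 0.853 RPM with BPK29 against 26.7 ± 0.487 with BPK9 and rose by 0.66 ± 0.0466. GDF15, a secreted stress hormone, stood at 20.2, 20.7 and 21.6 RPM with BPK29, at 11.5, 13.1 and 12 with BPK9 and at 10.6, 9.49 and 9.66 with DMSO; it rose by 0.75 ± 0.0692 over BPK9, which was itself called above DMSO (0.28, limma adjusted p = 0.0203). Against the majority, JDP2, a repressor of the AP-1 family, fell by 0.36 ± 0.0903. ATF4 mRNA did not pass, at 307, 315 and 307 RPM with BPK29 and 320.0, 322 and 317 with BPK9 (log2 -0.05, 95% interval -0.09 to 0.00, limma adjusted p = 0.104). SLC7A11, the cystine transporter and a target of both ATF4 and NRF2, differed by 0.03 (-0.01 to 0.08, limma adjusted p = 0.234), and passed as higher with a common total (0.08) and with median-ratio scaling (0.05).

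The cytosolic tRNA synthetases, which load amino acids onto tRNAs, split: of 20, 11 rose and 7 fell (median 0.08), against 20.5% of all genes higher and 27.5% lower, so the 7 are near the background. GARS, for glycine, was 351 ± 2.74 RPM with BPK29 against 263 ± 7.08 with BPK9 and rose by 0.42 ± 0.0242, CARS, for cysteine, rose by 0.41, and AARS, for alanine, by 0.34, while VARS, for valine, fell by 0.31 ± 0.0283. In endoplasmic reticulum folding, 16 of 26 members rose and none fell (median 0.14), beside the same 20.5% and 27.5%. HSPA5, the main chaperone of that compartment, stood at 2194, 2148 and 2159 RPM with BPK29, at 1704, 1685 and 1748 with BPK9 and at 1753, 1748 and 1745 with DMSO. The BPK29 libraries were above all others, a rise of 0.34 ± 0.0192 (limma adjusted p = 4.93e-19). HSP90B1, its HSP90, rose by 0.34, HERPUD1, of the degradation machinery, by 0.40, and SEL1L, an adaptor of the same machinery, by 0.32.

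Heat shock genes, listed here as HSF1, chaperones mostly of the cytosol and the mitochondrial chaperonins HSPD1 and HSPE1, were mostly lower with BPK29. Of 23 tested members 19 fell, 1 rose and 3 did not pass (median -0.22, against 27.5% of all genes called lower). HSPA1A, the inducible HSP70, stood at 53.6, 56.6 and 55.4 RPM with BPK29, at 104, 103 and 109 with BPK9 and at 115, 121 and 119.7 with DMSO. BPK29 was lowest and DMSO highest, with no overlap between any of the groups, and HSPA1A fell 1.9 fold (log2 -0.92 ± 0.0334, limma adjusted p = 8.61e-26). BPK9 was itself called below DMSO (-0.17, limma adjusted p = 0.00256). HSPA1B, a near-identical copy whose reads cannot be kept apart from HSPA1A with certainty, fell by 0.75 ± 0.0338. CRYAB, a small heat shock protein, was 3.17 ± 0.365 RPM with BPK29 against 6.25 ± 0.254 with BPK9 and fell by 0.88 ± 0.103, and DNAJA1, an HSP40 partner of HSP70, was 274 ± 7.04 RPM with BPK29 against 391 ± 9.18 with BPK9 and fell by 0.51 ± 0.0239.

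The exception was HSPA6, an HSP70 gene that is nearly silent in unstressed cells. It stood at 4.42, 4.46 and 4.88 RPM with BPK29, at 1.34, 1.24 and 1.36 with BPK9 and at 1.24, 0.863 and 1.01 with DMSO. Every BPK29 library was above every other library, and HSPA6 rose 3.48 fold (log2 1.49 ± 0.135, limma adjusted p = 1.65e-12), the largest rise of any called gene. Its level was low and its reads may be shared with a close pseudogene. HSPA8, the constitutive HSP70, fell by 0.51 ± 0.0186, from 3585, 3606 and 3703 RPM with BPK9 to 2543, 2529.9 and 2579.7 with BPK29. The heat map of both lists shows these rows library by library.

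HSPA6 rose and HSPA8 fell, and both hold a heat shock element, so their 250 bases before the start are shown, from RefSeq (GRCh38.p14), with the element (GAANNTTCNNGAA on either strand) in capitals. HSPA8 lies on the minus strand at chr11:123062137-123062386 and HSPA6 on the plus strand at chr1:161524290-161524539.
HSPA8: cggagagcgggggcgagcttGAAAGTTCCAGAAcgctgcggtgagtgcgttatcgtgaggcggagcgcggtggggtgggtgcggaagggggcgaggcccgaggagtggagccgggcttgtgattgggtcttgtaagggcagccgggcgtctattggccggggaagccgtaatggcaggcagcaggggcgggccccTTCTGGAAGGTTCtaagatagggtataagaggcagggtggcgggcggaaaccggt
HSPA6: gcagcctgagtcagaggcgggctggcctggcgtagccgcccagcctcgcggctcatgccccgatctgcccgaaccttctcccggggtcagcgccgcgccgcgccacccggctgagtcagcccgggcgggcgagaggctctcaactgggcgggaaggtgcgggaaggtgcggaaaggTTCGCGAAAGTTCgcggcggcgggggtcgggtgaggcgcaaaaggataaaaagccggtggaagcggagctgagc
In HSPA8 the matches begin 230 and 55 bases before the start, and in HSPA6 the match begins 74 bases before it. Of 20 tested heat shock members with a promoter in the table, 4 held a match (20.0%): HSPA6, HSPA8, DNAJB6 and CHORDC1. The share was 0.333% of 10211 tested genes and 0.439% of all 27305 promoters. DNAJB6 fell by 0.22 and CHORDC1 by 0.31. The window of HSPA1A holds no run of these letters, which says nothing of the factor. HSF1 mRNA stood at 60.0, 58.9 and 56.9 RPM with BPK29, at 60.0, 57.6 and 57.7 with BPK9 and at 60.1, 58.7 and 57.4 with DMSO, and its difference was 0.00 (95% interval -0.07 to 0.08, limma adjusted p = 0.93).

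**Figure D3:**
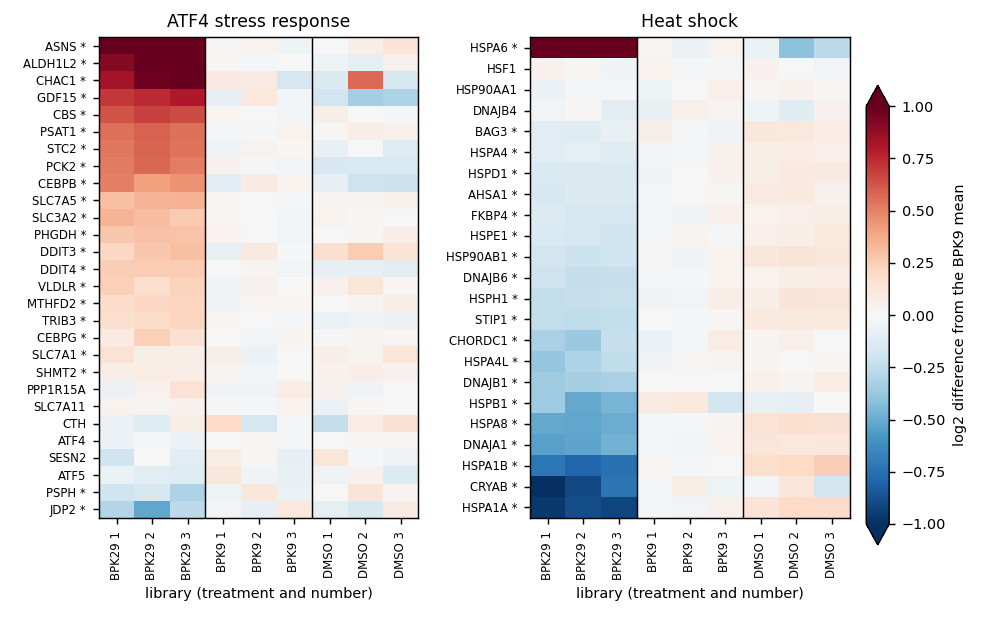
Colour gives each library's log2(RPM + 0.5) difference from the BPK9 mean for the tested members of the ATF4 list (left, 28 genes) and the heat shock list (right, 23 genes), with an asterisk for genes called between BPK29 and BPK9. The BPK29 columns are red for 20 called ATF4 members and blue for 19 called heat shock members, with HSPA6 beyond the red end of the scale, which stops at 1 either way.

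Genes for cell division were lower with BPK29 by modest amounts. In mitosis, 28 of 30 members fell and none rose (median -0.23), and in DNA replication 35 of 42 fell and 1 rose (median -0.15), against 27.5% of all genes called lower and 20.5% higher. FOXM1, a factor that drives mitotic genes, stood at 114, 109 and 113 RPM with BPK29, at 157, 152 and 152 with BPK9 and at 163, 152 and 159 with DMSO. The BPK29 libraries were clearly lowest and DMSO sat with BPK9, a fall of 0.45 ± 0.0299 (limma adjusted p = 9.57e-17). AURKA, a spindle kinase, fell by 0.44, CDK1, the kinase of mitotic entry, by 0.42, NUF2, of the kinetochore, by 0.42, and UBE2C, of the anaphase-promoting machinery, by 0.38.

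MCM7, a subunit of the replicative helicase, stood at 331, 322 and 325 RPM with BPK29, at 516, 499 and 504 with BPK9 and at 553, 565 and 555 with DMSO. Its groups did not overlap, with BPK29 lowest and DMSO highest, and it fell by 0.63 ± 0.0223 (limma adjusted p = 3.18e-26), the largest change of the replication list. CDC45, which activates that helicase, fell by 0.36, TYMS and TK1, which make thymidine nucleotides, by 0.33 and 0.32, and POLD1, a replicative polymerase, by 0.30. In homologous recombination and Fanconi repair, 12 of 17 fell and none rose (median -0.14), led by FANCD2, which was 42.1 ± 0.788 RPM with BPK29 against 62.9 ± 1.4 with BPK9 and fell by 0.57 ± 0.0375. With a common total the falling counts were 23 in replication, 6 in repair and 26 in mitosis, beside 2643 of all 12937 genes. Without BPK29 replicate 3, on the authors' scaling, repair had 7.

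Among G1 and S regulators, CDK6 fell by 0.44 ± 0.0313 (106 against 144 RPM), CCNA2, cyclin A, by 0.33 and CDK2 by 0.27, while CCNE1, cyclin E1, rose by 0.38 ± 0.0625. Of the 4 tested inhibitors of these kinases, CDKN1A, which encodes p21, stood at 75.7, 79.2 and 79 RPM with BPK29, at 59.6, 58.3 and 53.3 with BPK9 and at 53, 50.7 and 54.1 with DMSO. It was highest with BPK29 without overlap (rise 0.45 ± 0.0394, limma adjusted p = 7.04e-13), and CDKN1B, or p27, rose by 0.18, whereas CDKN2C and CDKN2D fell by 0.19 and 0.29. Of 28 p53 targets 11 were higher and 6 lower (median 0.02), against 20.5% and 27.5% of all genes, so no direction is read from the falling count. Beside CDKN1A and GDF15, which are counted there too, PLK3 rose by 0.44 and TP53INP1 by 0.55, and SPATA18 fell by 0.42. In the BCL2 family 1 of 11 rose and 3 fell, the latter at the background share. The riser was MCL1, a survival protein with a short-lived message, at 857, 857 and 861 RPM with BPK29, at 578, 581 and 612 with BPK9 and at 567, 564 and 575 with DMSO. Its BPK29 libraries stood well above the rest, a rise of 0.54 ± 0.022 (limma adjusted p = 5.69e-24).

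Immediate early factors, the first genes switched on by growth and stress signals, were mostly higher. Of 22 tested, 14 rose and 2 fell (median 0.20), against 20.5% of all genes called higher and 27.5% lower. JUNB, an AP-1 subunit, stood at 60.8, 57.6 and 57.5 RPM with BPK29, at 35.4, 42 and 36.1 with BPK9 and at 32.5, 30.6 and 30.7 with DMSO. BPK29 was highest and BPK9 lay above DMSO, with a rise of 0.63 ± 0.0486 over BPK9 (limma adjusted p = 1.32e-14) and of 0.27 from DMSO to BPK9 (limma adjusted p = 0.00124). FOSL1, another AP-1 subunit, rose by 0.53 ± 0.0327 (118 against 81.7 RPM), EGR1, a zinc finger factor, by 0.75 at low reads (3.48 against 1.89 RPM), and ZFP36, which destabilises cytokine mRNAs, by 0.58. NR4A3, an orphan nuclear receptor, fell by 0.69 ± 0.0967.

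MAP kinase feedback genes gave 9 higher and 2 lower of 19 (median 0.11), or 8 and 2 of 18 without DUSP10, which met the minimum level only through its BPK29 libraries and 1 of BPK9; over all genes 20.5% were higher and 27.5% lower. DUSP2, a phosphatase of MAP kinases, was 22.1 ± 1.38 RPM with BPK29 against 14 ± 1.02 with BPK9 and rose by 0.64, while DUSP6, the phosphatase specific to ERK, stood at 45.5, 47 and 49.6 RPM with BPK29, at 71.5, 72.3 and 74 with BPK9 and at 73, 70.7 and 72.1 with DMSO. DUSP6 was lowest with BPK29 without overlap and fell by 0.61 ± 0.0369 (limma adjusted p = 4.34e-18). The EGF family had 1 of 9 higher and 4 lower, with EGF, NRG1, EGFR and ERBB2 down by 0.34, 0.31, 0.28 and 0.20, and the ligand EPGN up by 0.14.

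Targets of YAP and TEAD, which respond to cell contact and tension, were mostly lower, with 9 of 11 falling and 1 rising (median -0.27), against 27.5% of all genes called lower and 20.5% higher. CTGF, a matrix signalling protein, stood at 134, 128 and 131 RPM with BPK29, at 207, 208 and 216 with BPK9 and at 204, 209 and 205 with DMSO. Its BPK29 libraries were the lowest by a wide gap, a fall of 0.68 ± 0.0272 (limma adjusted p = 2.9e-24). ANKRD1, a nuclear ankyrin protein, fell by 0.98 ± 0.0919 (6.16 against 12.4 RPM), F3, tissue factor, by 0.60 and CYR61 by 0.32, and the receptor kinase AXL rose by 0.19 ± 0.0407. All 3 tested ID proteins rose, ID1 as given above, ID3 by 0.39 ± 0.0242 and ID2 by 0.11, and 1 of 5 BMP ligands and SMADs did, SMAD9 by 0.31; ID2 lost its call without BPK29 replicate 1 (log2 difference 0.10, limma adjusted p = 0.0843), without BPK29 replicate 3 (0.11, adjusted p = 0.0578) and without BPK9 replicate 3 (0.07, adjusted p = 0.194). Of 20 NF-kB and cytokine genes 10 rose and 2 fell (median 0.14), or 10 and 1 of 18 without IL1B and ICAM1, which needed the DMSO libraries to meet the minimum level: the subunit RELB rose by 0.63 and the survival gene BIRC3 by 0.56, and IL6 fell by 0.49 ± 0.0588 (18.9 against 26.6 RPM). In the urokinase system, PLAU, the protease, and PLAUR, its receptor, rose by 0.33 and 0.32, whereas SERPINB2, an inhibitor of the protease, fell by 0.39.

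The aryl hydrocarbon receptor, a sensor of planar foreign compounds, had 5 of 6 tested pathway genes higher and none lower (median 0.56), against 20.5% of all genes called higher. CYP1B1, a P450 enzyme, stood at 903, 905 and 874 RPM with BPK29, at 491, 509.8 and 482 with BPK9 and at 442, 473 and 482 with DMSO. All 3 BPK29 libraries were above the other 6, BPK9 and DMSO overlapped, and CYP1B1 rose 1.81 fold (log2 0.85 ± 0.0252, limma adjusted p = 1.1e-28). CYP1A1, the best known target, stood at 2.51, 3.45 and 3.43 RPM with BPK29, at 0.997, 0.901 and 0.905 with BPK9 and at 0.783, 0.657 and 0.961 with DMSO, near the minimum level, and its BPK29 libraries were the highest (log2 1.33 ± 0.151). AHRR, the repressor of the pathway, rose by 0.72 ± 0.076, TIPARP by 0.41 and ARNT, the partner of the receptor, by 0.24. AHR mRNA differed by -0.03 (95% interval -0.10 to 0.03, limma adjusted p = 0.431).

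NRF2 targets had no common direction. Of 15 glutathione, thioredoxin and iron genes 6 rose and 4 fell (median 0.03), and of 22 detoxification and NADPH genes 6 rose and 11 fell (median -0.06). Over all genes 20.5% were higher and 27.5% lower, so the 4 and the second 6 are near the background. With a common total the list of 15 gave 8 and 2, beside 3754 higher and 2643 lower of all 12937 genes. Next to HMOX1, GCLC, the catalytic subunit that starts glutathione synthesis, rose by 0.20 ± 0.0295 and BLVRB, biliverdin reductase, by 0.31, while SRXN1, sulfiredoxin, stood at 1315, 1346 and 1304 RPM with BPK29, at 1483, 1510.4 and 1509 with BPK9 and at 1559.8, 1605 and 1582 with DMSO. SRXN1 was lowest with BPK29 without overlap and fell by 0.18 ± 0.0197 (limma adjusted p = 1.76e-10). Within the reductases, AKR1C1 rose by 0.48 ± 0.0239, with the caution that its copy AKR1C2 is nearly identical, and ALDH3A1 by 0.39, but AKR1B10 stood at 967, 954 and 932 RPM with BPK29, at 1296, 1384 and 1277 with BPK9 and at 1257, 1248 and 1304 with DMSO. BPK29 had the 3 lowest AKR1B10 values, a fall of 0.47 ± 0.0233 (limma adjusted p = 5.35e-21). Of the efflux pumps, ABCC3 rose by 0.55 ± 0.0368 and ABCG2 fell by 0.30 ± 0.0326.

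Cholesterol and fatty acid synthesis was mostly lower, with 21 of 31 members falling and 1 rising (median -0.17), against 27.5% and 20.5% of all genes. LSS, which closes the sterol ring, was 28.8 ± 1.16 RPM with BPK29 against 41.7 ± 2.04 with BPK9 and fell by 0.53 ± 0.0479, STARD4, a sterol carrier, fell by 0.49, FADS2, a desaturase, by 0.41 and INSIG1, the feedback regulator, by 0.41. Glycolysis and hypoxia genes gave 4 higher and 11 lower of 25 with the authors' scaling. With a common total they gave 8 and 8, beside 3754 higher and 2643 lower of all 12937 genes, so no direction is given. NDRG1, BNIP3L (0.67) and KDM3A (0.46) rose and PFKP fell (-0.25). For autophagy and lysosomes, 12 of 21 rose and 3 fell (median 0.12, against 20.5% of all genes higher and 27.5% lower), among them the cargo receptor SQSTM1 (rise 0.31 ± 0.0194), the kinase ULK1 (0.35) and MAP1LC3B (0.30), against BECN1, which fell by 0.26. Metallothioneins MT2A and MT1A fell by 0.32 and 0.35, though members of this family are near copies, and the zinc exporter SLC30A1 rose by 0.35. The plot of the gene lists sets these groups side by side.

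**Figure D4:**
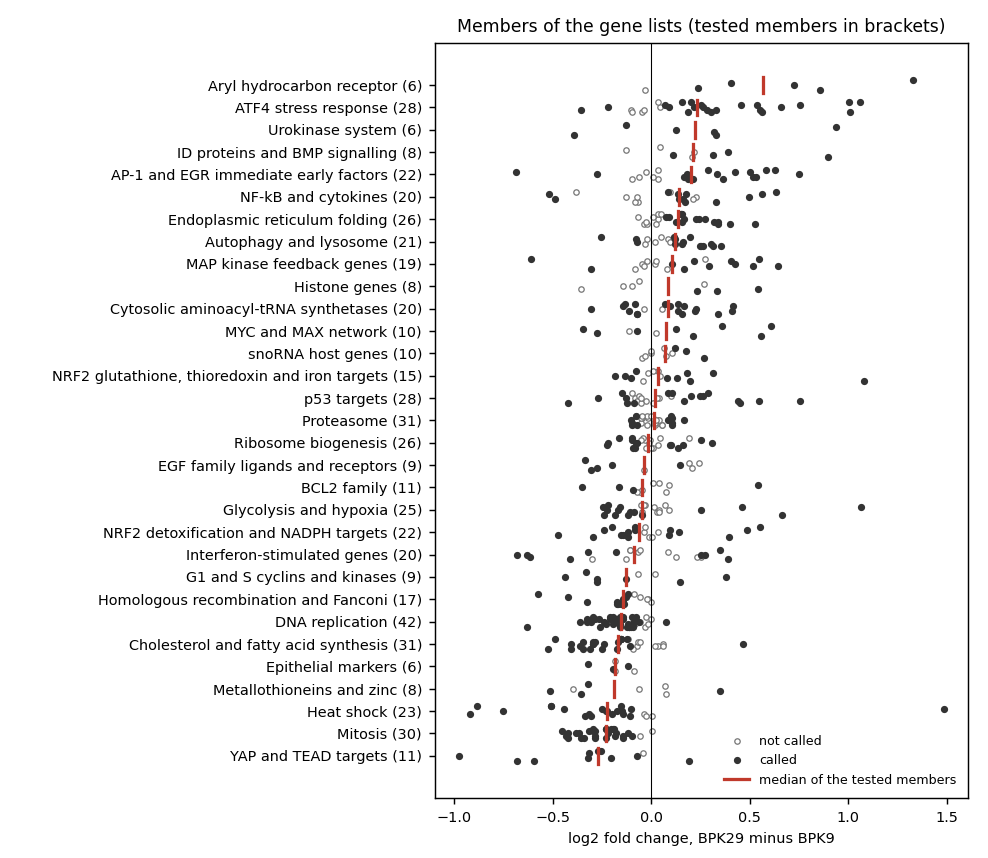
Points are the tested members of each list (number in brackets), by log2 fold change, BPK29 minus BPK9, filled where called, and red bars are list medians. Among the lists shown, medians run from -0.27 for YAP and TEAD targets to 0.56 for the aryl hydrocarbon receptor list. Single genes such as HSPA6 lie far from their list. The fibroblast and endothelial markers (median -0.30) are among the lists not shown.

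Markers of other cell types were checked in the same libraries. The epithelial keratins KRT19, KRT8 and KRT18 were the bulk of 8 epithelial markers, whose summed level was 2666 to 2696 RPM with BPK29, 3096 to 3108 with BPK9 and 3190 to 3239 with DMSO, and CDH1 was at 0 in all 9 libraries. KRT19 fell by 0.32 ± 0.02, KRT8 by 0.19 and KRT18 by 0.12. Fibroblast and endothelial markers summed to 67.7 to 69.5 RPM with BPK29 and 95.5 to 96.8 with BPK9, a gap mostly in COL3A1 (fall of 0.60 ± 0.0373), with PECAM1 and CDH5 at 0. Immune markers summed to 65.1 to 69.2 and 66.3 to 69.8 RPM, nearly all of it CD68, with CD3E at 0; only CD68 and CD14 reached the minimum level, and CD14 fell by 0.57 ± 0.12 (2.63 against 4.12 RPM). The part of these markers in the results above was not tested.

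BPK9 stood near DMSO. It differed from DMSO in 253 genes (1.96%), 132 higher and 121 lower, and in 1 gene by at least 1.5 fold (0.00773%), KLHL7-AS1, named here because it was the only one. BPK29 differed from DMSO in 6616 genes (51.1%), 519 of them by at least 1.5 fold (4.01%). These 3 comparisons share libraries, so their values are only set side by side: HMOX1 was 1.11 for BPK29 and 0.03 for BPK9 against DMSO, ASNS 0.99 and -0.07, CTGF -0.65 and 0.03, and HSPA1A -1.09 and -0.17. Of the 23 heat shock members, 8 were called lower with BPK9 than with DMSO. The count of 253 was not stable, from 1 on the log2(FPKM + 1) scale to 468 without BPK9 replicate 3, and 44 without BPK9 replicate 2 or 58 without DMSO replicate 2.

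NR0B1 knockdown, a different perturbation at 72 h, was set beside the compound result because its libraries are separate. NR0B1 itself changed by -1.37 there (log2), and 9294 of 13629 tested genes were called (68.2%), 4700 higher (34.5%) and 4594 lower (33.7%). Of 116 genes that BPK29 raised by at least 1.5 fold and that were tested in both, 65 rose after the knockdown (56%) and 24 fell (20.7%), which are 1.47% and 0.53% of the genes that rose and fell there; the background over all 12839 genes tested in both was 34.4% and 35.3%. Of 272 genes that BPK29 lowered as much, 84 rose (30.9%) and 106 fell (39%), or 1.9% and 2.34% of those lists. CPA4 (-2.55) and THBS1 (-1.90) fell in the knockdown, as did CTGF (-1.48), MCM7 (-0.36) and HSPA1A (-0.55), and ALDH1L2 (0.63), ID1 (0.74) and GPRC5C (1.20) rose. HSPA6 (-1.90), HMOX1 (-0.49) and MCL1 (-1.09), which BPK29 raised, fell in the knockdown, and the ASNS value there was -0.06, which did not pass. Among the leading genes that BPK29 lowered, ARTN (0.52), USH1C (0.47), KIAA0040 (0.27) and MAP2K6 (0.20) rose in the knockdown, and the others fell. Time, agent and gene lengths differ between these experiments, so sizes were not compared.

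**Figure D5:**
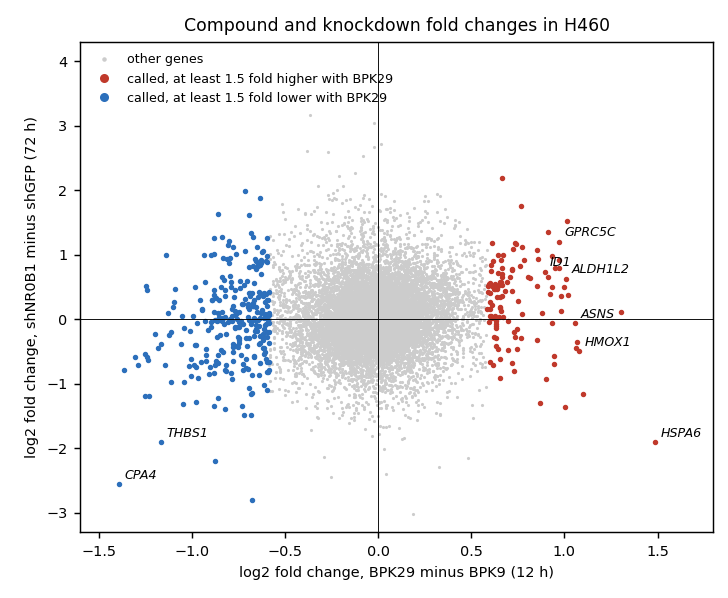
Each point is a gene tested in both experiments, with the log2 fold change of BPK29 minus BPK9 at 12 h across and of shNR0B1 minus shGFP at 72 h up. Red genes (116) and blue genes (272) are those past 1.5 fold between the compounds, and both colours lie above and below zero in the knockdown.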

How the data were processed

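RNA was sequenced from H460 cells given BPK29, BPK9 or DMSO, 3 libraries each, with H460 shNR0B1 and shGFP libraries set beside them. The authors deposited FPKM values, which are scaled for depth and gene length, for 23710 symbols. Reads passed through STAR, featureCounts and DESeq2 with build hg19, per the submitters' processing notes. No version or annotation is given in the sources used here. The strand setting is not stated either, so antisense and overlapping genes may share reads.

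Each FPKM value is a whole number of reads times a step fixed by gene and library, which gave whole reads for 100% of 16745 genes in the compound columns (tolerance 0.02 reads) and 100% of 18335 in the knockdown columns; 970 genes above 0 in 1 compound library only and 28 symbols without a value were left out. Gene lengths behind the compound columns are unreliable, so the design's unit is RPM, on the authors' scaling, which lies within 1.04% of median-ratio factors. Depth was 19077517 to 24824508 reads over the 9 compound and DMSO libraries and 16709850 to 24613404 over the 12 H460 knockdown libraries.

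Genes with at least 0.5 RPM in at least 3 libraries were fitted with limma 3.58.1 in R 4.3.3 on log2(RPM + 0.5) with a mean-variance trend, all 9 libraries in 1 fit and the 12 H460 knockdown libraries in another, with Benjamini-Hochberg adjustment over all genes tested. Intervals are 95%. The fit was tested on simulated reads. Genes named were 5 fixed ones (KEAP1, NFE2L2, NR0B1, RBM45, SNW1), in each direction the 15 called genes that changed most without overlap of the compounds and with a higher mean of at least 5 RPM, and, from 35 lists, up to 5 called members, the largest opposite one and up to 3 that did not pass. DNAJB6, CHORDC1, HSPA8, HSPD1, HSPE1, ICAM1 and KLHL7-AS1 were named after their values were seen. Of the leading genes and marker genes, 2 are not reported here. The members and lists were chosen with earlier results of these data known. Alternatives were other pseudocounts, filters, units, scalings, voom weights, fewer libraries and a replicate block. Chromatin data were not used here.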

Additional observations from a re-analysis of the deposited data

How the results depend on the processing

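Each called gene named in the text kept its direction under every alternative run, and 2387 of 2404 alternatives over 151 named genes changed neither direction nor call. NR0B1 (common total), NFE2L2 (without BPK29 replicate 3 or BPK9 replicate 1) and ID2 lost their call in some; ID2 did so with log2(FPKM + 1), with no filter and without BPK29 replicate 1 or 3 or BPK9 replicate 3. KEAP1, SNW1 and SLC7A11 gained one. Among genes that did not pass, the sign turned for AHR (0.016) and ATF4 (0.0042) with a common total, and for HSF1 (-0.013 to 0.026 with 1 library left out).

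Calls between the compounds ran from 5379 to 6459 over 16 alternatives, and from 5502 to 5842 when 1 of their libraries was left out. Genes past 1.5 fold numbered 219 with log2(FPKM + 1), 595 with a pseudocount of 0.1, 184 with a pseudocount of 2, 210 with a minimum of 5 RPM and 643 with limma voom. BPK9 against DMSO gave 1 call with log2(FPKM + 1), 37 with no filter and 448 with the replicate block. It gave 44 to 468 when 1 library was left out (164 without BPK9 replicate 1, 44 without replicate 2, 468 without replicate 3, 58 without DMSO replicate 2, 162 without DMSO replicate 3). With a common total, 23 replication and 6 recombination and Fanconi members were called lower, beside 2643 of all 12937 genes. The recombination and Fanconi count was 7 to 12 with 1 library left out. The cause of these shifts was not tested.

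The labels do not say that equal replicate numbers mark a shared culture or day, and deviations of same-numbered BPK29 and BPK9 libraries correlated by 0.0349, 0.032 and 0.0229 across genes, too little to treat them as pairs, although each BPK29 library correlated best with its own number. A replicate block gave 6459 calls, against 6206 without it. With 3 libraries a group, changes at a few RPM rest on few reads, and the size of a fold there depends on the pseudocount.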

Other observations

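Ribosome biogenesis and proteasome genes had counts near those over all genes, of which 20.5% were called higher and 27.5% lower. With the authors' scaling no result is read from their counts. Of 26 ribosome biogenesis genes 6 rose and 9 fell with BPK29 against BPK9 (7 and 3 with a common total), with POLR1C, a subunit of RNA polymerases I and III, up by 0.31 ± 0.0462 and the nucleolar protein NPM1 down by 0.23 ± 0.0197. Proteasome subunits gave 7 higher and 5 lower of 31, and 16 and 0 with a common total (over all genes 3754 and 2643 of 12937), all by small amounts, such as PSMD3 at 0.16. In the MYC and MAX network, 5 of 10 tested genes rose and 3 fell, beside the same 20.5% and 27.5%. The rising count was above its background share and the falling count near it, but with only 10 genes no result is read. MXI1, an antagonist of MYC, was 32.2 ± 1.17 RPM with BPK29 against 21.8 ± 0.928 with BPK9 and rose by 0.56 ± 0.0538. MXD4 rose by 0.36, whereas MNT fell by 0.28. Of 10 snoRNA host genes 3 rose and none fell, beside the same shares. The lack of falls was below the 27.5%, but here too the list is short and no result is read. The host GAS5, a noncoding RNA, stood at 329.6, 371 and 349 RPM with BPK29, at 291, 298 and 280.4 with BPK9 and at 296, 293 and 287 with DMSO. Its BPK29 libraries were highest, and it rose by 0.27 ± 0.0286.

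Of 20 interferon-stimulated genes 4 were higher and 6 lower, near the shares over all genes (20.5% and 27.5%). OAS3, a sensor of double-stranded RNA, stood at 73, 69.6 and 72.8 RPM with BPK29, at 118, 114 and 114 with BPK9 and at 114, 121 and 118 with DMSO. Its BPK29 libraries were clearly the lowest, with a fall of 0.68 ± 0.0319 (limma adjusted p = 7.64e-22), and IFI44L, IFI44 and OAS1 fell by 0.63, 0.62 and 0.41. The factor IRF1 rose by 0.39 ± 0.0768.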
